A study of Mus musculus with 10 samples.

Results

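Immediate early genes and other activity-induced genes were followed in 10 single neurons of the mouse nucleus of the solitary tract (NTS), where visceral afferents end in the brainstem. The set held 38 genes, chosen by gene symbol and matched through their Ensembl identifiers to the 25006 genes counted in each neuron. All 10 neurons carried the LepRb-Cre; Halo-eYFP reporter, in which Cre expressed from the leptin receptor gene switches on a fluorescent protein, and all came from C57BL/6 mice aged 3 months. Slices 285 microns thick were held for 50 min in artificial cerebrospinal fluid, and the contents of each recorded cell were then drawn into a pipette and sequenced as 1 library. 5 neurons were labelled type 1 (neurons 1-1, 1-2, 4-3, 8-2 and 9-1) and 5 type 2 (neurons 6-2, 10-1, 10-3, 9-2 and 9-4) by their firing property. Unsliced or unstimulated control tissue was not analysed here.

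The labels name no animal, so each firing type is treated as 1 sample, and no test between types, and no p-value, is given. Levels are given as CPM, the counts of a gene divided by all gene counts of that neuron and multiplied by 1000000. Every mean ± SD below is over 5 neurons of a type and describes the spread between cells. Detection of a gene in a neuron required 10 CPM and 3 counts, and a gene was called measured if its mean over the 10 neurons was at least 1 CPM.

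Immediate early genes are transcribed within minutes of a stimulus by transcription factors already present in the cell, so they need no new protein. In neurons, calcium entry and kinase signalling act on CREB, which binds the cAMP response element (CRE), and on the serum response factor SRF, which binds the CArG box. Many of the products are themselves transcription factors, others switch the signal off, and a few act at synapses. Fos is widely used as a marker of recently active neurons in the NTS.

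The libraries held 9796799 to 41844825 counts each, and a count of 0 allows at most 3 counts, or 0.0717 to 0.306 CPM, which covers counting error only. Snap25, a synaptic vesicle fusion protein of neurons, was at 1546 to 3123 CPM in every neuron. Lepr itself ranged from 0.890 CPM in neuron 9-4 to 122 CPM in neuron 1-1, and was detected in 2 type 1 and 4 type 2 neurons. Transcripts on a list of 14 microglial markers summed to 0.0668 to 896 CPM in type 1 and to 4.23 to 1809 CPM in type 2. Of the 14, 12 were detected in neurons 6-2 and 9-4, 7 in 9-2 and 6 in 1-2, against 0 to 2 in the other 6 neurons. Of 10 vascular markers, 8 were detected in no neuron. A list of 9 astrocyte markers summed to 150 to 673 CPM in type 1 and to 1044.5 to 1775 CPM in type 2. These sums did not overlap. However, only 1 to 3 of the 9 were detected in a type 1 neuron and 1 to 5 in a type 2 neuron. In 10-1, 10-3 and 9-2 only 1 marker was detected, and it made up most of the sum. Only 1 was detected in 1-1 and 8-2 as well. The part of astrocyte RNA in differences between the types was not tested. Neuron 9-1 stood apart in the summed level of the 38 genes, at 23041 CPM against 4580.4 to 8152 CPM in the other 4 type 1 neurons.

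Promoter sequences are shown for 5 of the genes because they share, or lack, the CRE core, the 5 letters TGACG, through which CREB acts. Each run holds the 250 bases before the RefSeq transcription start (build GRCm38.p6), read 5′ to 3′ on the gene's strand, and capitals mark TGACG or its reverse complement. Fos (chr12:85473640-85473889, plus strand) has cores starting 129 and 66 bases before the start. Junb (chr8:84978749-84978998, minus strand) has 1, at 106 bases. Egr4 (chr6:85513590-85513839, minus strand) has them at 177 and 109 bases. Nr4a1 (chr15:101266596-101266845, plus strand) has 4, at 233, 213, 69 and 40 bases. Gadd45g (chr13:51846425-51846674, plus strand) has none in this window.
Fos: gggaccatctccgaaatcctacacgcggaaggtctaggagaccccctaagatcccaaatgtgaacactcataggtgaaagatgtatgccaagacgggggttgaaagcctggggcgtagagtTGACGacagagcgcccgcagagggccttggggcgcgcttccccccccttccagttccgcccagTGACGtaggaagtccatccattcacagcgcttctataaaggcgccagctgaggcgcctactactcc
Junb: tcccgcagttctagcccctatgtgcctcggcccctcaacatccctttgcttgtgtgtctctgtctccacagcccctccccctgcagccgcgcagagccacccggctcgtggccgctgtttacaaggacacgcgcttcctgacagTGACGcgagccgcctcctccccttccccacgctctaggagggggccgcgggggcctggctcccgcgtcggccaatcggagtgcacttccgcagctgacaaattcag
Egr4: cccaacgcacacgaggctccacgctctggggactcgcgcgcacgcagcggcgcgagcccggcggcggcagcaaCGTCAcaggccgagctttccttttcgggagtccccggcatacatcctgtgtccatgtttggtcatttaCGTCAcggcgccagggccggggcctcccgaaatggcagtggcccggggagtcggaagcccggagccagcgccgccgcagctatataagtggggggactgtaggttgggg
Nr4a1: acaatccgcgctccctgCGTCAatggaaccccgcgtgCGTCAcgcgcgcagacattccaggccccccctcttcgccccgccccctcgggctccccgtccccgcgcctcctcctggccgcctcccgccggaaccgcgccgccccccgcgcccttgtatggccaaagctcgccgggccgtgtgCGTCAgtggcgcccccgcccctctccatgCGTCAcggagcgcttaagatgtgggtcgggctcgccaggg
Gadd45g: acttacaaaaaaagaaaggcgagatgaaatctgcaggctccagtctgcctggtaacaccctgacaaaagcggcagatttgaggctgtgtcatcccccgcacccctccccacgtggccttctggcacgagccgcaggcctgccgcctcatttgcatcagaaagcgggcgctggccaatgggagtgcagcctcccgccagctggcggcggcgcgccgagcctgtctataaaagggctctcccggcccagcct

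Of the 38 genes, 29 had a RefSeq promoter window of 300 bases (250 before to 50 after the start). TGACG on either strand was present in 19 of these 29 genes (65.5%), against 23.0% of 27025 genes with such windows. A gene counted if any of its windows matched, and the 29 members had 40 windows, against 32851 for the 27025 genes. Some windows lay in transcribed sequence, as for Npas4, with all 250 upstream bases in annotated exons. The upstream bases for Jund ended at 70697738, while the gene is annotated from 70698949. The full palindrome TGACGTCA, which contains the core, was found in Btg2, Dusp1 and Maff, 3 of 29 genes (10.3%, against 2.03% of all genes). The CArG box was found in Egr2 alone among the 29 (3.45%, against 1.81%). Egr1, Egr3 and Arc were among the 9 members without a window. Bases farther than 250 before the start were not searched for any gene, so this count does not show that the other members lack the box. The members' windows were also richer in G and C, with a median of 63.0% against 52.7% and a median of 21 CG dinucleotides against 7, and the part of base composition in the motif shares was not tested. These matches describe letters in a window.

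Transcripts of 34 of the 38 genes reached a mean of 1 CPM, and the same number was detected in at least 1 neuron. Fos, Fosb, Junb, Jund, Egr1, Dusp1 and Gadd45g were detected in all 10 neurons, 7 of the 34 measured genes (20.6%), where 14.2% of all 11923 measured genes were. Npas4, Egr2, Fosl1 and Gadd45a were detected in 1 neuron each, and Fosl2, Nr4a3, Maff and Csrnp1 in 2. These 8 made up 23.5% of the measured members, against 25.7% of all measured genes. Egr3, Nr4a2, Dusp4 and Nptx2 were detected in none. Detected members numbered 20, 25, 17, 18 and 16 in type 1 neurons 1-1, 1-2, 4-3, 8-2 and 9-1, where 44.6%, 52.9%, 47.8%, 59.3% and 46.8% of all measured genes were detected. They numbered 21, 20, 19, 16 and 19 in type 2 neurons 6-2, 10-1, 10-3, 9-2 and 9-4, with backgrounds of 61.8%, 51.3%, 50.3%, 55.7% and 56.2%. The most members were thus found in 1-2, and 9-1, highest in summed level, had among the fewest.

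**Figure D1:**
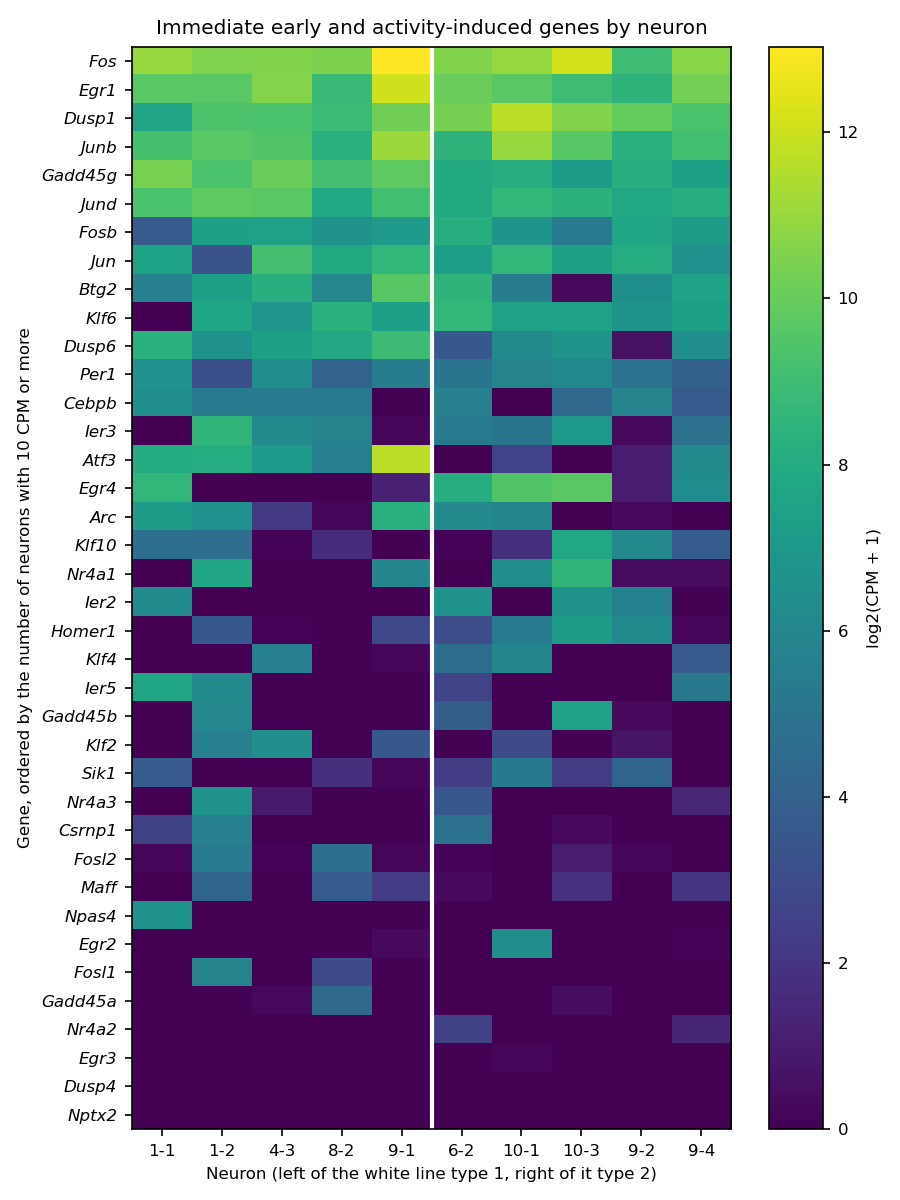
Level of each of the 38 genes, as log2(CPM + 1), in each of the 10 neurons, with type 1 left and type 2 right of the white line and genes ordered by how many neurons reached 10 CPM. The 7 genes detected in every neuron form the top rows, and most lower rows switch between high and near-0 values from one neuron to the next.

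Fos, the partner of Jun proteins in the AP-1 transcription factor, had the highest median level per kilobase of exon in the set, at 672 CPM per kb. In type 1 its level was 2066 CPM in 1-1, 1449.7 in 1-2, 1484 in 4-3, 1388 in 8-2 and 8343 in 9-1. In type 2 it was 1496 CPM in 6-2, 1980.3 in 10-1, 4436 in 10-3, 513 in 9-2 and 1665 in 9-4. Neurons 9-1 and 10-3 were high and 9-2 was low, and the types overlapped. The means were 2946 ± 3029 CPM in type 1 and 2018 ± 1459 CPM in type 2. Without 9-1 the type 1 mean was 1597 ± 315 CPM over 4 neurons.

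Fosb, a Fos relative that lasts longer after stimulation, was present in every neuron at lower levels. Its type 1 values were 12 CPM in 1-1, 170.1 in 1-2, 177 in 4-3, 103 in 8-2 and 126 in 9-1. Its type 2 values were 296 CPM in 6-2, 108 in 10-1, 39.5 in 10-3, 199.7 in 9-2 and 142 in 9-4. Neuron 1-1 was lowest and the remaining type 1 values lay inside the type 2 range. The other Fos-family genes were sparse. Fosl1 was detected in 1-2 (55.3 CPM), was at 6.86 CPM in 8-2 and had 0 counts in the other 8 neurons. Its exons overlap those of Ccdc85b on the opposite strand over 57.2% of their length, so its reads cannot be assigned with certainty. Fosl2 was detected in 1-2 (39.9 CPM) and 8-2 (27.5 CPM) and did not exceed 1.08 CPM elsewhere.

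Among the Jun genes, whose products pair with Fos proteins, Junb followed Fos in its highest type 1 neuron but not in type 2. Junb was at 593 CPM in 1-1, 829 in 1-2, 718 in 4-3, 311 in 8-2 and 2110.2 in 9-1, and at 356 CPM in 6-2, 2105 in 10-1, 794 in 10-3, 306 in 9-2 and 542 in 9-4. Neurons 9-1 and 10-1 stood alike and above all the others. Jund, the Jun gene least dependent on stimulation, was at 648 CPM in 1-1, 885 in 1-2, 841 in 4-3, 216 in 8-2 and 548 in 9-1. In type 2 Jund was at 243 CPM in 6-2, 388 in 10-1, 326 in 10-3, 217 in 9-2 and 274 in 9-4. The means were 628 ± 268 CPM in type 1 and 289.7 ± 68.6 CPM in type 2, and only neuron 8-2 kept the type 1 values from lying wholly above those of type 2. Jun was at 185 CPM in 1-1, 9.02 in 1-2, 575 in 4-3, 238 in 8-2 and 398 in 9-1, against 152, 396, 168, 269 and 96.2 CPM in 6-2, 10-1, 10-3, 9-2 and 9-4. Neuron 1-2, just under the detection limit, was the only one without detected Jun. Junb shares 7.52% of its exon bases with Prdx2 on the opposite strand.

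The Egr genes encode zinc finger transcription factors. Egr1 was at 816 CPM in 1-1, 837 in 1-2, 1554 in 4-3, 439 in 8-2 and 4370.1 in 9-1, and at 1049 CPM in 6-2, 831 in 10-1, 505 in 10-3, 349 in 9-2 and 1283 in 9-4. As for Fos, 9-1 was highest and 9-2 lowest. The type 1 mean was 1603 ± 1598 CPM, and 912 ± 466 CPM over 4 neurons without 9-1, against 803 ± 383 CPM in type 2. Egr4 was either abundant or close to 0. Among type 1 neurons 1-1 had 398 CPM, and none of the other 4 exceeded 1.31 CPM. In type 2 it was at 277 CPM in 6-2, 727 in 10-1, 824 in 10-3, 1.02 in 9-2 and 81.1 in 9-4. Thus Egr4 was detected in 4 of 5 type 2 neurons and 1 of 5 type 1 neurons, with means of 382 ± 374 and 80.0 ± 178 CPM. Egr2 was detected in 10-1 only (86.1 CPM), and Egr3 never exceeded 0.12 CPM.

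The Nr4a genes encode orphan nuclear receptors. Nr4a1 was detected in 4 neurons, at 211 CPM in 1-2, 60.2 in 9-1, 84.9 in 10-1 and 362 in 10-3, and was below 0.4 CPM in the other 6. Nr4a3 was detected in 1-2 (98.4 CPM) and, just above the limit, in 6-2 (10.4 CPM). Nr4a2 reached at most 4.67 CPM, in 6-2. Neuron 1-2 was the only one with both Nr4a1 and Nr4a3 detected.

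Atf3, a stress- and injury-induced relative of CREB, showed the largest difference between the types in the set by means of log2(CPM + 1). By the types' medians Egr4 differed more. In type 1 Atf3 was at 258 CPM in 1-1, 269 in 1-2, 133 in 4-3, 48.6 in 8-2 and 3224 in 9-1. In type 2 it was at 0 in 6-2 and 10-3, 5.10 CPM in 10-1, 1.02 in 9-2 and 68.3 in 9-4. It was detected in all 5 type 1 neurons and in 1 type 2 neuron, 9-4, whose level lay above that of 8-2. The means were 787 ± 1366 and 14.9 ± 29.9 CPM, and without 9-1 the type 1 mean was 177 ± 106 CPM over 4 neurons. Cebpb, a basic leucine zipper factor, was at 38.6 to 89.9 CPM in 4 type 1 neurons and at 0 in 9-1. In type 2 it was at 49.8 CPM in 6-2, 0.024 in 10-1, 19.9 in 10-3, 55.2 in 9-2 and 11.7 in 9-4. Its exons overlap those of Tmem189 on the opposite strand over 20.7% of their length. Npas4, an activity-dependent factor of neurons, was at 102 CPM in 1-1 and had 0 counts in the other 9. Maff was detected in 1-2 (17.7 CPM) and 8-2 (12.9 CPM), and Csrnp1 in 1-2 (50.6 CPM) and 6-2 (28.9 CPM).

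4 Krüppel-like factors differed in where they were found. Klf6 was at 109 to 320.1 CPM in 4 type 1 neurons, at 105 to 399 CPM in the 5 type 2 neurons and at 0 in 1-1. Klf2 was at 50.7 CPM in 1-2, 86.8 in 4-3 and 11.1 in 9-1, at 0 in 1-1 and 8-2, and at most 6.97 CPM (10-1) in type 2. Klf4 reached 49.1 CPM in 4-3, with no more than 0.127 CPM in the other type 1 neurons, against 23.0 CPM in 6-2, 59.7 in 10-1, 0.0276 in 10-3, 0 in 9-2 and 12.3 in 9-4. Neuron 4-3 was the only one with both Klf2 and Klf4 detected. Klf10 was at 25 CPM in 1-1, 24.6 in 1-2, 0.102 in 4-3, 2.13 in 8-2 and 0.0319 in 9-1, and at 0.082 CPM in 6-2, 2.40 in 10-1, 226 in 10-3, 70.2 in 9-2 and 12.7 in 9-4. Klf2 and Klf4 are also endothelial genes. The vascular list summed to 2.55 to 27.8 CPM in type 1 and 0.120 to 10.7 CPM in type 2. Its highest sum was in 4-3, where Pecam1 was at 27.6 CPM and Cldn5, Cdh5, Kdr and Tek were at 0, and its part in the Klf2 and Klf4 levels was not tested.

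The Ier genes are short early response genes with varied products. Ier2 was either near 0 or between 52.3 and 99.5 CPM. Among type 1 neurons 1-1 had 75.1 CPM and none of the others exceeded 0.0319 CPM. Type 2 neurons had 99.5 CPM in 6-2, 98.3 in 10-3, 52.3 in 9-2, 0.024 in 10-1 and 0.0636 in 9-4. Ier3 was at 0 in 1-1, 366 CPM in 1-2, 74.3 in 4-3, 56.4 in 8-2 and 0.159 in 9-1, and at 38.8 CPM in 6-2, 31.9 in 10-1, 126 in 10-3, 0.245 in 9-2 and 29.4 in 9-4. Ier5 was detected in 3 neurons, at 208 CPM in 1-1, 72.9 in 1-2 and 35.7 in 9-4, and did not exceed 5.33 CPM elsewhere.

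Several induced genes encode proteins that end the signal. Dusp1, a nuclear phosphatase of MAP kinases, was at 191 CPM in 1-1, 678 in 1-2, 653 in 4-3, 463 in 8-2 and 1157 in 9-1. In type 2 it was at 1299.7 CPM in 6-2, 3273 in 10-1, 1527 in 10-3, 981 in 9-2 and 640.3 in 9-4. The means were 628 ± 354 and 1544 ± 1023 CPM, and the ranges overlapped through 1-2, 4-3 and 9-1 in type 1 and 9-2 and 9-4 in type 2. Dusp6, the cytoplasmic phosphatase of ERK, went the other way. It was at 321 CPM in 1-1, 99.9 in 1-2, 168 in 4-3, 234 in 8-2 and 485 in 9-1, and at 10.9 CPM in 6-2, 68.4 in 10-1, 107 in 10-3, 0.491 in 9-2 and 86.9 in 9-4. Only 1-2 and 10-3 overlapped, and the means were 262 ± 149 and 54.7 ± 47.0 CPM. Dusp4 never exceeded 0.0319 CPM.

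Sik1, a kinase that restrains the CREB coactivators, was low throughout, with 12.9 CPM in 1-1 and no more than 2.49 CPM elsewhere in type 1, against 4.10 CPM in 6-2, 37.8 in 10-1, 4.06 in 10-3, 17.4 in 9-2 and 0 in 9-4. Btg2, an antiproliferative gene, was at 50.5 CPM in 1-1, 164 in 1-2, 291 in 4-3, 64.5 in 8-2 and 803 in 9-1. Its type 2 values were 359 CPM in 6-2, 44.9 in 10-1, 0.221 in 10-3, 87.7 in 9-2 and 179 in 9-4, so it was undetected only in 10-3. Per1, a clock gene that CREB also induces, was at 96.6 CPM in 1-1, 8.15 in 1-2, 82.8 in 4-3, 16.5 in 8-2 and 43.2 in 9-1, and at 14.9 to 67.5 CPM in type 2. Its means of 49.4 ± 39.2 and 40.3 ± 21.2 CPM lay closer together than the spread between neurons.

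The Gadd45 genes encode small stress-induced regulators of MAP kinase signalling. Gadd45g was at 1341 CPM in 1-1, 650.1 in 1-2, 1112 in 4-3, 571 in 8-2 and 879.5 in 9-1, and at 239 CPM in 6-2, 281 in 10-1, 142 in 10-3, 289.7 in 9-2 and 171 in 9-4. Every type 1 neuron lay above every type 2 neuron, with means of 911 ± 320.1 and 225 ± 65.7 CPM. Its relatives showed no such division. Gadd45b was at 63.4 CPM in 1-2, 13.1 in 6-2 and 174 in 10-3, and no other neuron exceeded 0.245 CPM. Gadd45a was detected in 8-2 only (21.8 CPM), and 19.1% of its exon bases overlap E230016M11Rik on the opposite strand.

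Arc and Homer1 act at synapses, Arc in the removal of glutamate receptors and Homer1 as a postsynaptic scaffold with a short activity-induced form that gene-level counts do not separate. Arc was at 142 CPM in 1-1, 96.1 in 1-2, 3.67 in 4-3, 0.143 in 8-2 and 307 in 9-1, and at 68.1 CPM in 6-2, 60.8 in 10-1, 0 in 10-3, 0.245 in 9-2 and 0.0318 in 9-4. It was therefore detected in 3 type 1 and 2 type 2 neurons. Homer1 was at 11 CPM in 1-2 and 6.18 in 9-1, with no more than 0.102 CPM in the other type 1 neurons. In type 2 it was at 7.54 CPM in 6-2, 41.4 in 10-1, 140.1 in 10-3, 74.5 in 9-2 and 0.191 in 9-4. Nptx2, a secreted synaptic pentraxin, had 0 counts in all 10 neurons.

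**Figure D2:**
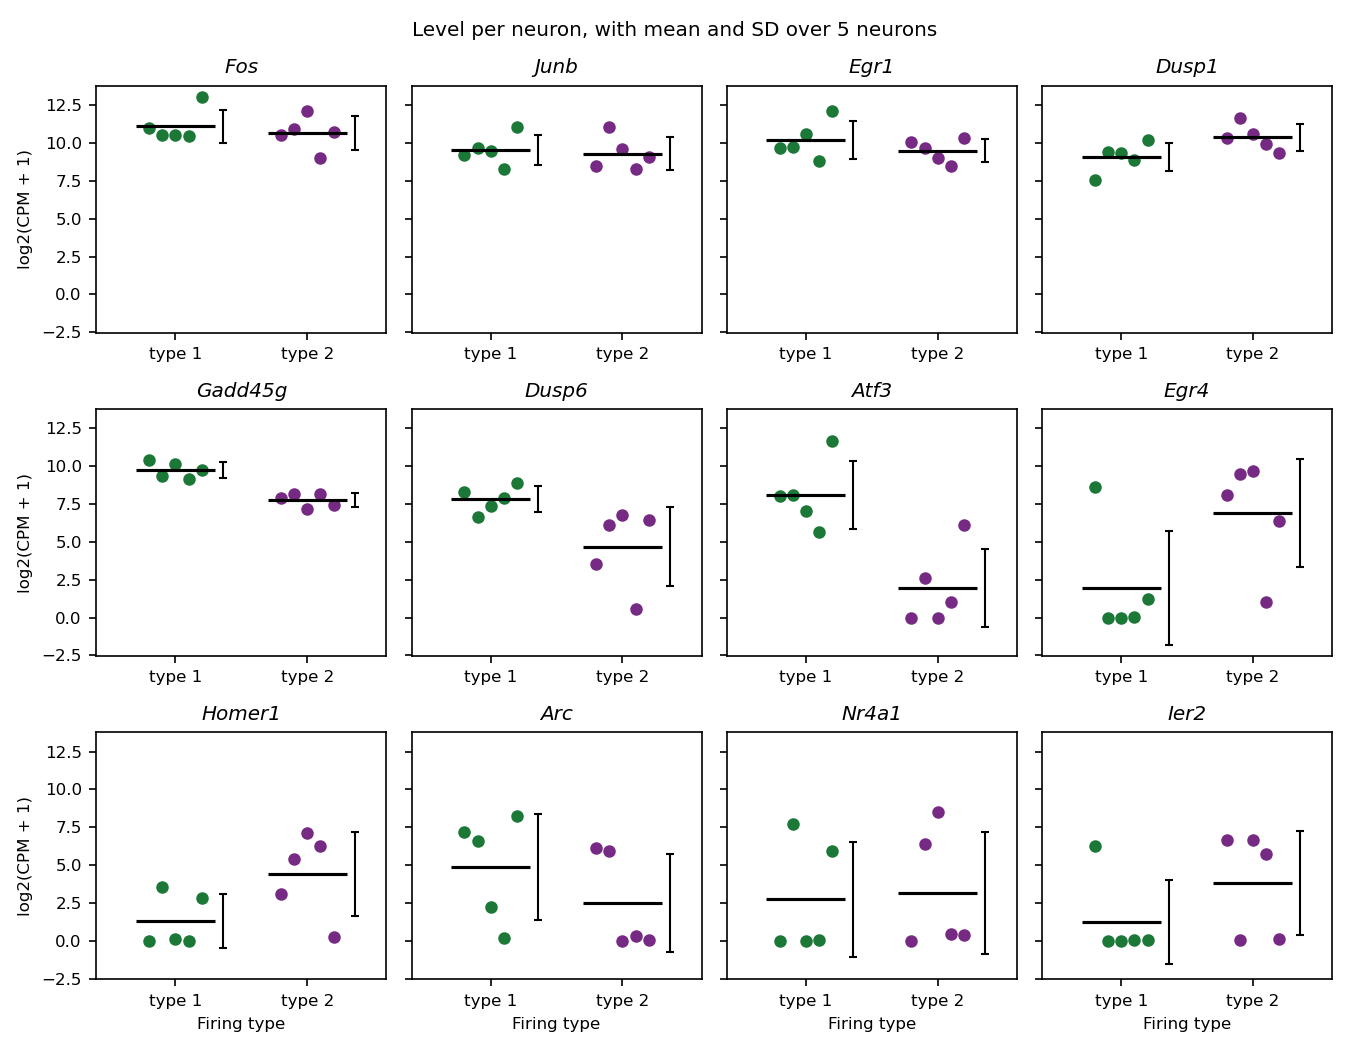
Level of 12 members, as log2(CPM + 1), in type 1 and type 2; each point is 1 neuron, horizontal lines are means and vertical bars the SD over 5 neurons. Gadd45g separates the types (571 to 1341 CPM against 142 to 289.7 CPM), Atf3 overlaps only through neuron 9-4, and Egr4 is split within both types.

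Between the types, the 34 measured members differed in both directions. Differences were taken as the type 2 mean of log2(CPM + 1) less that of type 1. The added 1 shrinks them for low genes, while values near 0 in single neurons can enlarge or turn them against the mean CPM. Klf6 differed by 1.50 with means of 161 CPM in type 1 and 205 CPM in type 2. Ier3 differed by 0.36 although its means were 99.3 CPM in type 1 and 45.3 CPM in type 2. By at least 1 log2 unit, 10 members were higher in type 2 (29.4%) and 11 in type 1 (32.4%). The backgrounds over all 11923 measured genes were 31.1% for type 2 and 21.6% for type 1. The share higher in type 2 was thus near the background, and that higher in type 1 above it. The median member difference was -0.50, against 0.24 over all measured genes. Without 9-2 the members' median was -0.17, and without 1-1 it was -0.33. Without 6-2, 9-2 and 9-4, the type 2 neurons richest in microglial transcripts, the medians were -0.53 for the members and -0.11 for all genes. Type 1 neuron 1-2 stayed in, although its microglial sum of 896 CPM was above the 524 CPM of 9-2. Taking each type's median neuron rather than its mean gave -0.0050 and 0.0052. Over summed counts, the 38 genes made up 10838 CPM in type 1, with a 95% Poisson interval of 10819 to 10858. In type 2 they made up 7869.9 CPM, with an interval of 7856 to 7884; both cover counting error only. The neuron means were 10173 CPM in type 1, or 6956 ± 1611 CPM over 4 neurons without 9-1, and 7365 ± 3109 CPM in type 2. Without 9-1 the order of the means was thus turned.

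Higher in type 1, with the difference in log2 units in brackets, were Atf3 (-6.14), Dusp6 (-3.14), Klf2 (-2.41), Arc (-2.41), Gadd45g (-1.99), Btg2 (-1.73) and Ier5 (-1.20), and of the sparse genes Fosl2, Fosl1, Npas4 and Maff. Higher in type 2 were Egr4 (4.96), Homer1 (3.11), Ier2 (2.56), Klf10 (1.69), Klf4 (1.68), Sik1 (1.66), Klf6 (1.50), Dusp1 (1.30) and Gadd45b (1.1), and of the sparse genes Egr2. Of the 7 members detected in all 10 neurons, Fos differed by -0.44, Junb by -0.25, Egr1 by -0.67, Jund by -0.99 and Fosb by 0.57, all within 1 log2 unit, and Gadd45g and Dusp1 were past it. Gadd45g was the only member with ranges that did not overlap, 1 gene higher in type 1 (background 0.587%) and 0 higher in type 2 (background 1.44%). Without 8-2, Jund and Atf3 joined Gadd45g (background 1.10%). Dusp6 did so without 1-2 (1.08%) or 10-3 (0.761%), and Atf3 without 9-4 (0.925%). In type 2, Gadd45b was the 1 such member without 1-2 (background 2.19%), with as little as 0.024 CPM in a type 2 neuron. Several of these directions rested on 1 neuron. Npas4 had counts in 1-1 alone, and Egr2 was detected in 10-1 alone. Without 1-1 the difference was 0.03 for Ier5 and -0.0067 for Klf6, and without 10-3 it was -0.15 for Gadd45b. Others kept their sign but shrank: without 10-3 Btg2 differed by -0.39 and Klf10 by 0.71, without 10-1 Klf4 by 0.91 and Sik1 by 1.05, without 9-1 Arc by -1.56, and without 4-3 Klf2 by -1.58.

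**Figure D3:**
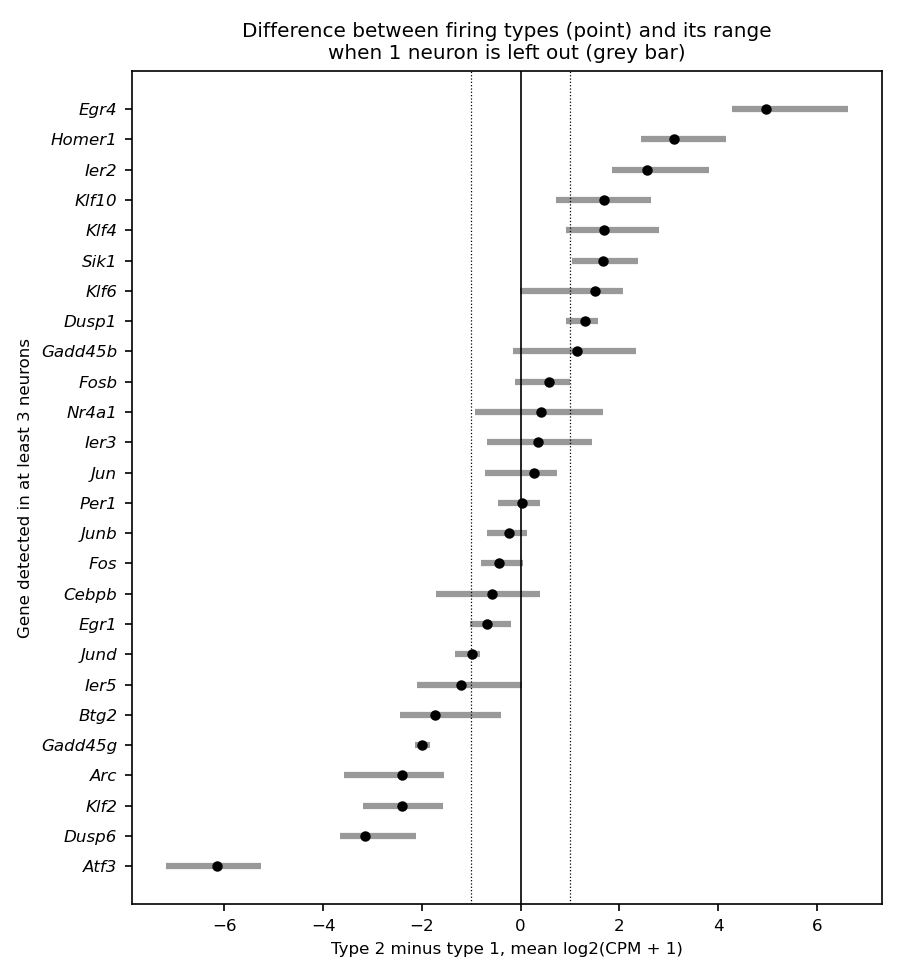
Mean log2(CPM + 1) of type 2 less that of type 1 for each of the 26 members detected in at least 3 neurons (points), with the lowest and highest value when 1 neuron is left out (grey bars) and dotted lines at 1 log2 unit on either side. Members run from -6.14 (Atf3) to 4.96 (Egr4), the bar of Gadd45g is narrow, and those of Klf6, Ier5 and Gadd45b reach past 0.

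To see which genes were high together in the same neuron, a member was called raised where it was detected and at least 2 log2 units above its own median over the 10 neurons. This gave 58 raised values. Neuron 1-2 had the most, 12 of 34 members (35.3%, against 15.6% of all measured genes): Fosl1, Fosl2, Atf3, Arc, Nr4a1, Nr4a3, Ier3, Ier5, Klf2, Gadd45b, Maff and Csrnp1. Fos, Junb and Egr1 were not among them. Fosl1, Fosl2, Nr4a1, Nr4a3, Ier5, Klf2, Gadd45b, Maff and Csrnp1 had medians of 1.43 CPM or less, so for them raised equals detected. In every neuron, members with such medians count as raised wherever they are detected. The raised count of 1-2 thus partly repeats its 25 detected members. Neuron 9-1 had 8 (23.5%, against 11.9%): Fos, Egr1, Atf3, Arc, Nr4a1, Klf2, Btg2 and Dusp6. With a limit of 3 log2 units in place of 2, 1-2 had 10 raised members (background 11.8%) and 9-1 had 4 (background 9.04%), so the count of 9-1 was then near its background. Neuron 9-1 held the highest level of 7 members, namely Fos, Junb, Egr1, Atf3, Arc, Btg2 and Dusp6, where 10.6% of all measured genes were highest. Neuron 1-2 also held the highest level of 7 members (11.9% of all genes). Oligodendrocyte-lineage markers summed to 1045 CPM in 9-1, with Mbp at 578 and Cnp at 455 CPM, against 2.00 to 220 CPM in the other 9 neurons, and their part in these values was not tested.

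The 2 neurons shared Atf3, Arc, Nr4a1 and Klf2. Neuron 1-1 had 6 raised members (17.6%, against 12.1%): Atf3 and Arc, as in both of these neurons, Ier5, as in 1-2, and Egr4, Npas4 and Ier2. Neuron 4-3 had 2 (5.88%, against 14.0%), Klf2 and Klf4. Neuron 8-2 had 3 (8.82%, against 17.0%), Fosl2, Gadd45a and Maff, and shared Fosl2 and Maff with 1-2.

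In type 2, 6-2 and 10-1 had 7 raised members each (20.6%, against 18.2% and 11.9%), 10-3 had 6 (17.6%, against 12.7%), 9-2 had 4 (11.8%, against 14.6%) and 9-4 had 3 (8.82%, against 14.4%). Neuron 6-2 raised Egr4, Arc, Nr4a3, Ier2, Klf4, Gadd45b and Csrnp1. Neuron 9-2 raised Ier2, Klf10, Sik1 and Homer1, and 9-4 raised Egr4, Ier5 and Klf4. Within type 2, Egr4 was raised in every neuron but 9-2. Dusp1 was raised in 10-1 alone, together with Egr2, Egr4, Nr4a1, Klf4, Sik1 and Homer1. Neuron 10-3, with the next highest Fos, raised Egr4, Nr4a1, Ier2, Klf10, Gadd45b and Homer1.

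**Figure D4:**
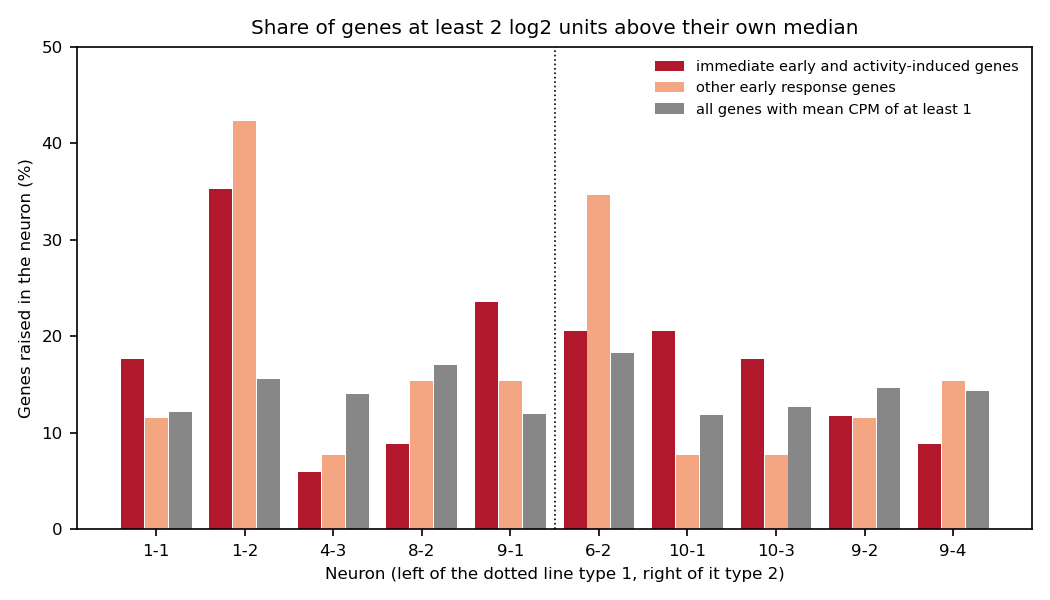
Share of the 34 measured members, of the 26 other early response genes and of all measured genes called raised in each neuron. Neuron 1-2 reaches 35.3% against 15.6% of all genes, 9-1 23.5% against 11.9%, and 4-3 and 8-2 lie below their backgrounds.

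Other early response genes, a list of 30 of which 26 were measured, were most often raised in the same neuron, 1-2. There 11 of 26 were raised (42.3%, against 15.6% of all measured genes). Neuron 6-2 followed with 9 of 26 (34.6%, against 18.2%), and each of the others had 2 to 4 (backgrounds 11.9% to 17.0%). Of the measured genes on a list of late response genes, 5 of 15 were raised in 1-2 (33.3%, against 15.6%): Bdnf, Vgf, Gpr3, Peli1 and Pim1. Neurons 1-2 and 6-2 also contained 6 and 12 of the 14 microglial markers. Neurons 9-2 and 9-4 contained 7 and 12, with 4 and 3 raised members (11.8% and 8.82%). They had 3 and 4 other early genes raised (11.5% and 15.4%), against 14.6% and 14.4% of all measured genes. The part of microglial RNA in these counts was not tested.

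Between types, 5 of the 26 other early genes were higher in type 2 by at least 1 log2 unit and 10 in type 1, with a median of -0.39. For this list and the next ones, the shares over all measured genes were 31.1% for type 2 and 21.6% for type 1, with a median of 0.24. Mcl1, a survival gene, differed by 3.10, and Ccn2, which encodes a matrix protein, by 2.95. Of 15 late genes, type 2 was higher by that much for 4 and type 1 for 5, with a median of 0.07. Rgs4, a brake on G protein signalling, differed by -4.34, and Bdnf, a neurotrophin, by -3.22. Of 30 measured genes upstream of the early response, type 2 was higher for 9 and type 1 for 8, with a median of -0.28. Rps6ka5 encodes MSK1, a kinase that phosphorylates CREB and histone H3. It was at 38.2 ± 26.2 CPM in type 2, with every neuron at 10.2 CPM or more, and at no more than 0.0319 CPM in type 1. Of the 30 it was the 1 gene without overlap and higher in type 2, with 0 higher in type 1 (backgrounds 1.44% and 0.587%). Its part in the levels of the early genes was not tested.

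Across the 10 neurons, the 26 members detected in at least 3 gave 325 pairs. Their correlations are descriptions only, since the points share depth, library and firing type. The median Pearson r was 0.0186, against 0.0148 over pairs of 8717 genes filtered alike, and 9 pairs exceeded 0.7 (2.77%, against 1.78%). Fos and Junb had r = 0.70, against 0.51 without 9-1, and Fos and Dusp6 had 0.71, against 0.45 without 9-2. Atf3 and Gadd45g had r = 0.76, with 0.25 within type 1 and -0.14 within type 2. Dusp1 and Homer1 had r = 0.73 (Spearman's rho 0.83), at least 0.71 without any 1 neuron, with 0.65 within type 1 and 0.56 within type 2. Jund and Klf2 had r = 0.79 (rho 0.65), also at least 0.71 without any 1 neuron, with 0.72 within type 1 and 0.62 within type 2. Fosb and Klf6 had r = 0.81 but rho 0.16, and r = 0.11 without 1-1. Pairs below -0.7 numbered 2 (0.615%, against 1.1%), Junb with Cebpb (r = -0.85, rho -0.72) and Klf10 with Btg2 (r = -0.75, rho -0.75). Junb was highest in 9-1 and 10-1, at 2110.2 and 2105 CPM, where Cebpb was at 0 and 0.024 CPM. Neuron 10-3 had the highest Klf10, 226 CPM, and the lowest Btg2, 0.221 CPM. Values of r without single neurons are not given for these 2 pairs.

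**Figure D5:**
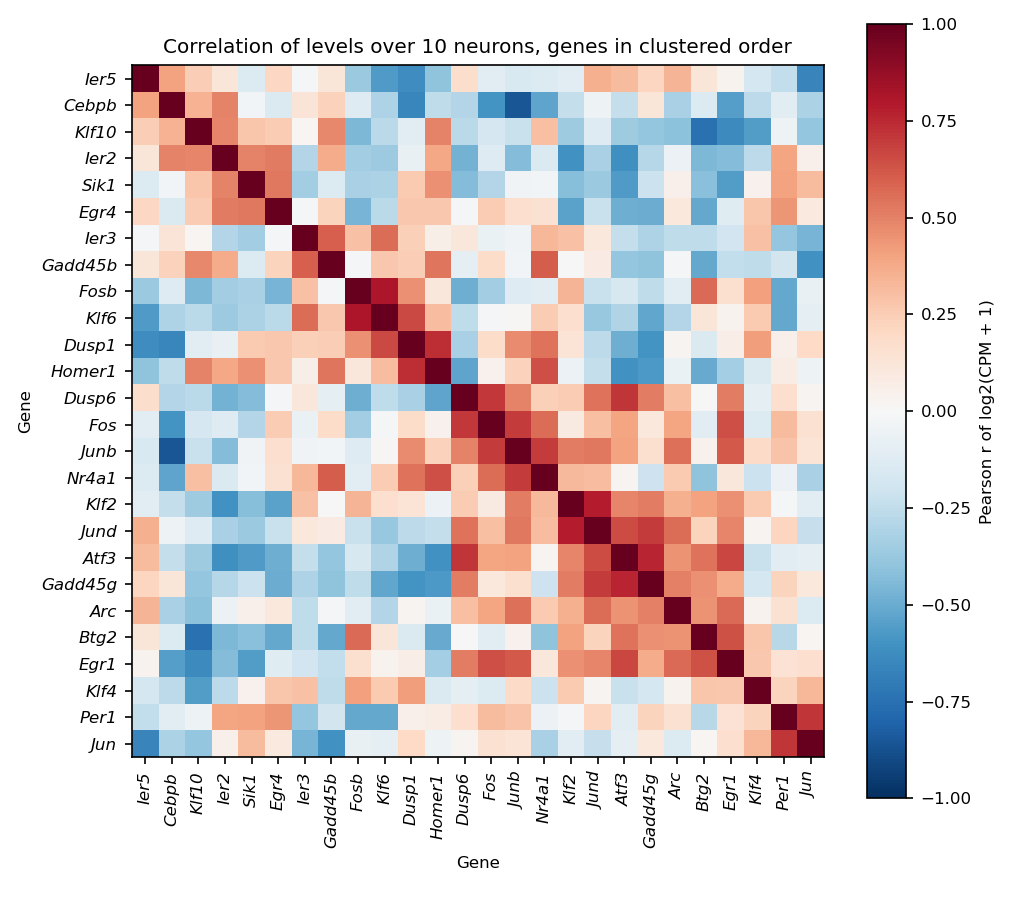
Pearson correlation of log2(CPM + 1) over 10 neurons for each pair of the 26 members detected in at least 3 neurons. Genes stand in clustered order. Pairs lie on both sides of 0 (median 0.0186), and 9 of 325 exceed 0.7.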

How the data were processed

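Single-neuron RNA sequencing counts from 10 neurons were analysed. Per the submitters' processing notes, cutadapt 1.13, STAR, HTSeq 0.6.1p1, DESeq2 and build mm10 were used, with roles, annotation and strand option not given in the sources used here. Deposited files hold raw counts per Ensembl gene, 1 file per neuron, and gene symbols came from GENCODE. CPM was computed from these counts and compared as log2(CPM + 1). Neurons were grouped by their labelled firing type. With no animal named, no test was run. Members and lists were chosen with earlier results of these data known. Members detected in at least 3 neurons are given per neuron and the others by range; from each list, at most 2 genes are named, those most different in size where a type had 3 or more neurons with detection. Exon overlaps were computed from the annotation. No 2 libraries were copies: chi-square divided by its degrees of freedom was at least 559 for each of 45 pairs. Alternatives covered scaling (TMM from edgeR 4.0.16 in R 4.3.3), pseudocount, thresholds, depth and single neurons left out. Scripts (Python 3.11.15, pandas 2.3.3, numpy 2.4.6) were tested on simulated data.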

Additional observations from a re-analysis of the deposited data

Results flagged for a closer look

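In groups of 5 neurons, Dixon's gap ratio was applied to 30 measures in both types, 60 groups in all, and 11 values stood apart from the other 4 neurons of their type. The limit marks about 1 in 20 groups if values are normally distributed, which many of these are not. For Gadd45b, Ier2, Klf4 and Egr4 in type 1 and Klf2 in type 2, 4 of 5 values lay at or near 0. Such a group is flagged almost by its form, so the number of flags cannot be set against that share. In neuron 9-1, the summed level of the 38 genes was 23041 CPM and Fos was 8343 CPM, above the other type 1 neurons, while Cebpb was 0. In neuron 1-1, Egr4 (398 CPM) and Ier2 (75.1 CPM) were high, and Fosb (12 CPM) and Klf6 (0 CPM) were low. In neuron 1-2, Gadd45b was high at 63.4 CPM and Jun low at 9.02 CPM. Klf4 was high in 4-3 at 49.1 CPM. Among type 2 neurons, only Klf2 in 10-1 stood apart, at 6.97 CPM, under the detection limit.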

How the results depend on the processing

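Of 16 members past 1 log2 unit among the 26 described per neuron, 9 kept their sign in every alternative: Egr4, Atf3, Ier2, Klf2, Klf4, Dusp6, Gadd45g, Sik1 and Homer1. TMM moved the all-gene median from 0.24 to 0.39, and no scaling changed a sign among the 26. It also moved the share of all genes called raised, from 11.9% to 15.2% in 9-1 and from 15.6% to 13.4% in 1-2. Neuron 1-2 still had the most raised members. With a pseudocount of 10, 5 members were higher in type 2 (background 13.6%) and 6 in type 1 (10.4%) by 1 log2 unit. With medians over neurons there were 6 (24.3%) and 7 (17.5%), and the difference of Ier5 was 0.0435. With no filter on low values, the median difference was -0.25 over the members and 0.05 over all genes. Non-overlap is more frequent among all genes when types hold fewer neurons. Without 6-2, 9-2 and 9-4, with 2 type 2 neurons left, 3 members did not overlap with type 2 higher (background 6.36%) and 3 with type 1 higher (3.52%), and raised values numbered 37. In libraries over 20000000 counts, 2 type 1 against 4 type 2 neurons, these counts were 2 (7.98%) and 3 (8.27%), with Ier5 at 1.30 and Klf6 at -0.58. Under that depth, 3 type 1 neurons against 6-2 alone, they were 6 (28.4%) and 7 (10.5%), with Arc at 0.78, Klf10 at -3.06 and Btg2 at 1.41. Among neurons whose name starts with 9, 9-1 alone against 9-2 and 9-4, they were 5 (37.6%) and 15 (32.1%), with Ier5 at 2.60, Klf6 at -0.31 and Dusp1 at -0.55. Leaving out 1 neuron gave 0 to 1 non-overlapping members higher in type 2 and 1 to 3 in type 1, and differences from -2.10 to 0.0273 for Ier5, from -0.0067 to 2.07 for Klf6 and from -0.15 to 2.33 for Gadd45b. The cause was not tested, and the smaller sets hold fewer neurons. No paired analysis was possible because the types share only 1 first number in their neurons' names, 9, and the labels do not say whether it marks an animal or slice. A count of 0 allows up to 0.306 CPM in the shallowest library, which covers counting error only.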

Other observations

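Heat shock genes, which encode protein chaperones, were raised most often in neuron 1-1, with 5 of 12 measured genes (41.7%, against 12.1% of all measured genes): Hspa1a, Hspa1b, Dnaja1, Hsp90aa1 and Hsf1. The other 9 neurons had 0 to 2. Between types, 2 of the 12 were higher in type 2 by at least 1 log2 unit and 4 in type 1, with a median of -0.49. Over all measured genes the shares were 31.1% and 21.6%, with a median of 0.24. Hsf1, the heat shock transcription factor, differed by -2.97 and Hspa1a by -2.0.

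Of 10 clock genes beside Per1, 3 were higher in type 2 by at least 1 log2 unit and 5 in type 1, with a median of -0.74. The backgrounds were again 31.1% and 21.6%, with a median of 0.24. Clock differed by -3.12 and Per2 by -2.77.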
